A study of Mus musculus with 6 samples.

Results

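The genes described are 32 markers of the 2 macroglial lineages of the brain, 16 of oligodendrocytes and 16 of astrocytes, chosen by name, and each was found as a single entry of the 23016 in the deposited table of cortical RNA. Cerebral cortex was taken at postnatal day 0 from 3 Fezf2 KO (Fezf2-/-) pups and 3 wild type (Fezf2+/+) pups, all born to crosses of Fezf2+/- parents, and total RNA of each brain gave 1 library. Replicates 1 and 2 of each genotype came from litter m1 and replicate 3 from litter m2. Neither the part of Fezf2 that the allele lacks nor the strain is given in the sources used here. The product of Fezf2 is a DNA-binding protein that specifies the subcerebral projection neurons of the deep cortical layers. The labels name no Cre line, so the mutation is not restricted to a cell type as far as they say.

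Oligodendrocytes form myelin. Their precursors arise from progenitors of the ventral and later the dorsal forebrain under the control of Olig2 and Sox10, divide in response to PDGF through the receptor Pdgfra, and switch on myelin genes mostly after birth in the mouse cortex. Astrocytes arise from radial glia once neurons have been made; they clear transmitters, carry water and potassium, couple through gap junctions and secrete lipoproteins. Newborn cortex therefore holds many glial precursors and few mature glia, and radial glia share several astrocyte genes.

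None of the glial genes tested passed the limma test between the genotypes. Of the 32 genes, 30 passed the filter on low values (10 or more normalised counts in at least 3 libraries), and 0 of the 30 had a limma p-value under 0.05 after Benjamini-Hochberg adjustment over all 17557 genes tested, of which 0.712% did, 0.404% higher and 0.308% lower in Fezf2 KO. An unadjusted p under 0.05 was reached by 6 of the 30, against 9.03% of all genes: 4 were higher in Fezf2 KO (Tnr, Pdgfra, Slc6a11 and Mag), against 4.66% of all genes, and 2 were lower (Agt and Gja1), against 4.37%. By edgeR 0 of the 30 passed, against 0.689% of all genes, and by DESeq2 2 did, Pdgfra and Tnr, against 2.3%. The 95% interval of the change lay within 1.5-fold in either direction for 22 of the 30, a share of 73.3% against 74.4% of all genes, so for most of these genes a larger difference lay outside the interval. The median log2 change (Fezf2 KO minus wild type, computed after adding 1 to each normalised count, a step that shrinks the change of low genes) was 0.11 over 15 oligodendrocyte genes and -0.06 over 15 astrocyte genes, against 0.00 over all genes. Levels below are normalised read counts, given as mean ± SD with n = 3 in each genotype, and are not scaled to gene length unless said; values of single libraries are given in the order of the replicates. The tissue is bulk, so fewer cells of a type and less RNA per cell cannot be told apart.

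**Figure D1:**
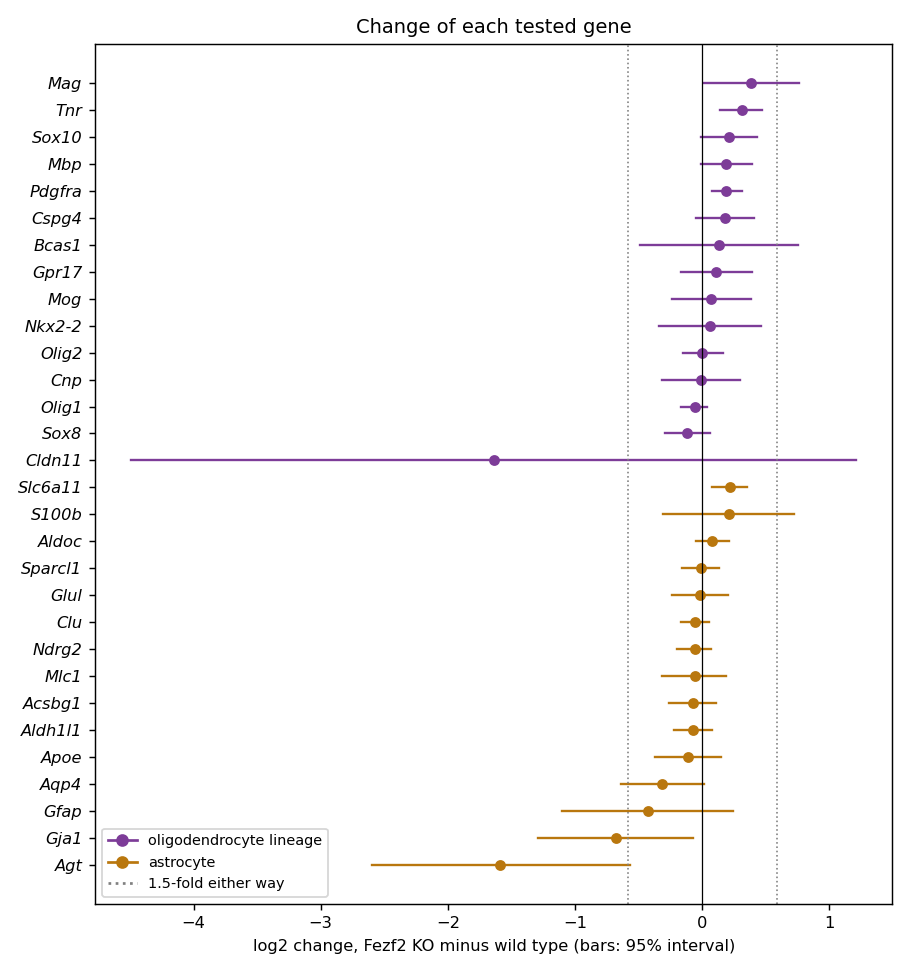
Log2 change of each tested gene, Fezf2 KO minus wild type (horizontal axis, points), with its 95% interval from limma (bars) for 15 oligodendrocyte and 15 astrocyte genes. Dotted lines mark 1.5-fold in either direction, and 22 of the 30 intervals lie between them, while those of Cldn11 and Agt are the widest.

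As a check of the labels, Fezf2 itself had 1989, 1377 and 1533 normalised counts in Fezf2 KO 1 to 3, against 5030, 5928 and 5396 in wild type 1 to 3. The libraries held 44978380 to 52872577 gene reads. Some of them stood apart in meningeal or choroid plexus genes. Wild type 1 was highest in 6 of 6 tested meningeal genes, and their summed level over 8 genes was 7532 there against 811 to 1360 in the other libraries; Slc22a6, an organic anion transporter of the meninges, had 453 counts there and 0 to 2.62 elsewhere. Fezf2 KO 1 was highest in 5 of 5 tested choroid plexus genes, with a summed level over 8 genes of 9790 against 66.2 to 150. For Kl it was only just highest, at 19.5 against 19.2 in wild type 2. Ttr, the thyroid hormone carrier of choroid plexus, stood at 8950 in Fezf2 KO 1. It had 65.6 and 68 counts in Fezf2 KO 2 and 3, and 9.45 to 15.7 in wild type. Averaged over 14 striatal neuron genes, the centred log2 level stood at -1.29, 0.27 and -0.59 across Fezf2 KO 1 to 3, and at 0.79, 0.50 and 0.33 across wild type 1 to 3. Fezf2 KO 1 and 3 were the lowest, and every Fezf2 KO library lay below every wild type library. For the striatal list, dissection and genotype therefore cannot be told apart. Of the lineage markers, Olig1, Olig2, Sox10, Pdgfra, Cspg4, Gpr17, Mbp, Gfap, Aldh1l1 and Gja1 had at least 541 counts in every library. Aqp4 had 309 to 521, Mag 116 to 206, Mog 101 to 124 and S100b 27.1 to 44.1, while Gjb6 had 0.81 to 4.49 outside wild type 1. The late myelin gene Mobp had 0 to 2.65.

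Expressed per kilobase of the longest coding transcript, the genes spanned a wide range in both genotypes. Apoe was highest, at 6768 normalised counts per kilobase in Fezf2 KO and 7239 in wild type, followed by Olig1 with 4757 per kilobase in Fezf2 KO and 4979 in wild type. Sparcl1, at 4744 per kilobase in Fezf2 KO and 4788 in wild type, and Glul, at 3747 and 3814, came next. Among the myelin genes, Cnp had 778 per kilobase in Fezf2 KO and 777 in wild type and Mbp 720 and 630, whereas Mag had 77.5 and 59.8 and Mog 67 and 63.7. Pdgfra stood at 535 per kilobase in Fezf2 KO and 468 in wild type, between the early and the late myelin genes.

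Of the transcription factors that set the oligodendrocyte fate, Olig1, Olig2, Sox10 and Sox8 had at least 1486 counts in every library. Nkx2-2 was lower, at 182 to 260. All 5 intervals of the change lay within 1.5-fold. Olig1, a basic helix-loop-helix factor, had 10274, 10214 and 10367 counts in Fezf2 KO 1 to 3, against 10661, 10288 and 11345 in wild type 1 to 3. Olig2, its neighbour on the chromosome and the factor needed to make the lineage, had 3491, 3554 and 4002 counts in Fezf2 KO against 3839, 3674 and 3492 in wild type. The genotypes overlapped for both genes, and the 95% interval of the log2 change ran from -0.17 to 0.04 for Olig1 and from -0.15 to 0.16 for Olig2.

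Sox10, the SRY-box factor that switches on myelin genes, had 1621, 1704 and 2066 counts in Fezf2 KO against 1486, 1617 and 1533 in wild type. The 3 Fezf2 KO values lay above the 3 wild type values, with Fezf2 KO 1 only just above wild type 2, and the log2 change of 0.21 (SE 0.095, interval -0.01 to 0.43) did not pass (limma adjusted p = 0.571). It was 0.11 without Fezf2 KO 3, the highest library (limma adjusted p = 0.744), and 0.28 without Fezf2 KO 1 (0.407). Sox8, a related factor, averaged 2582 ± 233 in Fezf2 KO and 2794 ± 143 in wild type, and Nkx2-2, a homeobox factor of differentiating precursors, averaged 231 ± 42.3 and 220 ± 35.9. The log2 change of Nkx2-2 was 0.06 with all libraries, 0.22 without Fezf2 KO 1, where it was lowest, and between -0.04 and 0.19 without each of the other libraries in turn. Both overlapped between the genotypes, and 0 of the 5 fate factors changed (median log2 0.00).

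All 4 genes of precursor receptors and surface proteins had a higher mean in Fezf2 KO cortex, and 0 passed the test over all genes by limma (median log2 0.19). Pdgfra, the PDGF receptor that marks oligodendrocyte precursors and also meningeal fibroblasts, had 3621, 3786 and 3562 counts in Fezf2 KO 1 to 3, against 3204, 3234 and 3156 in wild type 1 to 3. Every Fezf2 KO library lay above every wild type library, while wild type 1 was the library with the meningeal genes. The log2 change was 0.19 (SE 0.049, interval 0.08 to 0.31, limma adjusted p = 0.186), or 1.14-fold. Without wild type 1 it was again 0.19 (limma adjusted p = 0.449), and without replicate 1 of both genotypes it was 0.20 (0.493). DESeq2 gave 0.19 with an adjusted p of 0.0366.

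Tnr encodes tenascin-R, a matrix protein made by the oligodendrocyte lineage and by some neurons. It had 3012, 2926 and 2965 counts in Fezf2 KO against 2410, 2181 and 2621 in wild type. The genotypes did not overlap, and the Fezf2 KO libraries lay closer to one another than the wild type ones. The log2 change was 0.31 (SE 0.072, interval 0.14 to 0.47), with a limma adjusted p of 0.14 and a DESeq2 adjusted p of 0.00831. Leaving out 1 library gave a log2 change between 0.24 and 0.37 and a limma adjusted p between 0.0948 and 0.356.

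The promoters of Pdgfra and Tnr are printed because these are the glial genes that DESeq2 called; they run from 250 bases before to 50 bases after the annotated start, read in the direction of the gene, from RefSeq on GRCm38.p6, a later build than the mm9 of the counts. Capitals mark the motifs searched on both strands: CANNTG, the E-box that basic helix-loop-helix factors such as Olig2 can bind and that reads the same on the other strand, and ACAAAG and ACAATG, a pair of SRY-box motifs. The Pdgfra window lies at chr5:75152001-75152300 on the + strand and the Tnr window at chr1:159523519-159523818 on the + strand.
Pdgfra: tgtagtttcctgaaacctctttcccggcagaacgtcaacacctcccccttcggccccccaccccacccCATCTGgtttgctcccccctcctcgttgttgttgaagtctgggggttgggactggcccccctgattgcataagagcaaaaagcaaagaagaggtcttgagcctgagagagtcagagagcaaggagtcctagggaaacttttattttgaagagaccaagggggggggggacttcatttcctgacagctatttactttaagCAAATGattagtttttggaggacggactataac
Tnr: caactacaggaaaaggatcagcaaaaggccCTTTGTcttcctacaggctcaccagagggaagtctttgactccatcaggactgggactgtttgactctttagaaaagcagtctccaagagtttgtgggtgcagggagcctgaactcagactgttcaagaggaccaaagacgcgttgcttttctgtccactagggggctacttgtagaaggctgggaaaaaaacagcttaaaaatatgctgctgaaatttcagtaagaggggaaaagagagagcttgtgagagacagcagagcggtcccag
The Pdgfra window holds 2 E-boxes and neither SRY-box motif, and the Tnr window holds 1 ACAAAG, written from the other strand as CTTTGT, and no E-box. Over all 32851 windows of the table, 72.3% hold CANNTG, 18.7% ACAAAG and 12.6% ACAATG, so such matches are common. Promoters of 24 of the 32 genes were matched in the table by symbol.

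Cspg4, the NG2 proteoglycan of precursors and pericytes, averaged 1082 ± 124 in Fezf2 KO and 952 ± 73.8 in wild type (interval of the log2 change -0.05 to 0.41). Gpr17, a receptor of precursors about to differentiate, had 2354, 3213 and 3165 counts in Fezf2 KO 1 to 3, against 2495, 2611 and 2904 in wild type 1 to 3. Fezf2 KO 1 was the lowest of all libraries for Gpr17 and the other Fezf2 KO libraries the highest. Without Fezf2 KO 1 the log2 change of Gpr17 was 0.26 in place of 0.11, with a limma adjusted p of 0.305.

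Myelin genes and genes of differentiating oligodendrocytes held 0 changes among 6 tested (median log2 0.10). Mbp encodes myelin basic protein, and the same gene gives the golli transcripts, which neurons make too. It had 3052, 3629 and 3687 counts in Fezf2 KO 1 to 3, against 2809, 2989 and 3261 in wild type 1 to 3. The genotypes overlapped through Fezf2 KO 1, and the log2 change of 0.19 (SE 0.088) did not pass (limma adjusted p = 0.58) and was 0.28 without Fezf2 KO 1 (0.229). Mag, the myelin-associated glycoprotein, had 168, 192 and 206 counts in Fezf2 KO against 116, 165 and 156 in wild type. Its genotypes did not overlap, wild type 1 was the lowest library, and the log2 change was 0.38 (SE 0.162, interval 0.01 to 0.76, limma adjusted p = 0.529). Without wild type 1 it was 0.23 (limma adjusted p = 0.879).

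Mog, a surface protein of mature myelin, averaged 114 ± 10.9 in Fezf2 KO and 108 ± 6.92 in wild type, and Cnp, a phosphodiesterase of the myelinating cell, 1834 ± 347 and 1831 ± 157. Bcas1, which marks oligodendrocytes as they begin to form myelin, had 276, 586 and 568 counts in Fezf2 KO 1 to 3, against 358, 430 and 454 in wild type 1 to 3. Fezf2 KO 1 was again lowest and the other Fezf2 KO libraries highest, and the log2 change was 0.13 with all libraries and 0.48 without Fezf2 KO 1 (limma adjusted p = 0.213). Mobp, a late myelin protein, was at the limit of detection, with 2, 2 and 3 reads in Fezf2 KO and 0, 2 and 2 reads in wild type, and was not tested; 0 reads allow up to 2.81 normalised counts in wild type 1.

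**Figure D2:**
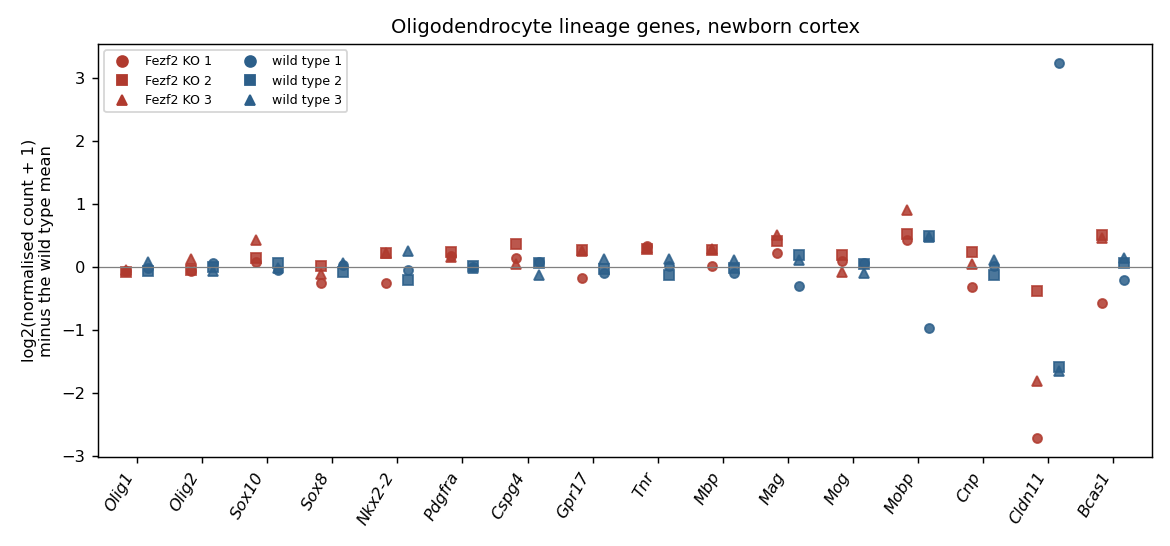
Log2 of the normalised count plus 1 of each oligodendrocyte gene, minus its wild type mean, in each library (Fezf2 KO red, left of wild type in blue; symbols give the replicate). The fate factors and precursor genes stay within a narrow band, and wild type 1 stands far above the other libraries for Cldn11, at 618 counts against 8.93 to 49.4.

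Cldn11, Gjb6 and Gja1 were highest in wild type 1, the library with the meningeal genes. Cldn11 encodes the claudin of myelin tight junctions, which arachnoid barrier cells make as well. It had 8.93, 49.4 and 17.7 counts in Fezf2 KO 1 to 3, against 618, 20.9 and 19.8 in wild type 1 to 3. Wild type 1 exceeded the next library 12.5 times, and the other libraries overlapped. The log2 change was -1.64 (SE 1.240, limma adjusted p = 0.812) and -0.02 without wild type 1 (0.997); without replicate 1 of both genotypes it was 0.52 (0.897). Gjb6, connexin 30, had 0.81, 4.49 and 3.53 counts in Fezf2 KO against 105, 1.75 and 2.58 in wild type, and too few libraries passed the filter for a test. Outside wild type 1 it lay between 1 and 5 reads.

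Gja1 encodes connexin 43, the main astrocyte gap junction protein, found also in radial glia and meninges. It had 541, 812 and 729 counts in Fezf2 KO 1 to 3, against 1719, 926 and 835 in wild type 1 to 3. The genotypes did not overlap, and the log2 change was -0.68 (SE 0.266, interval -1.29 to -0.07, limma adjusted p = 0.479). Without wild type 1 the log2 change was -0.36 (limma adjusted p = 0.748), and without replicate 1 of both genotypes it was -0.19 (0.78). The part of the meningeal signal in these 3 genes beyond leaving that library out was not tested.

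**Figure D3:**
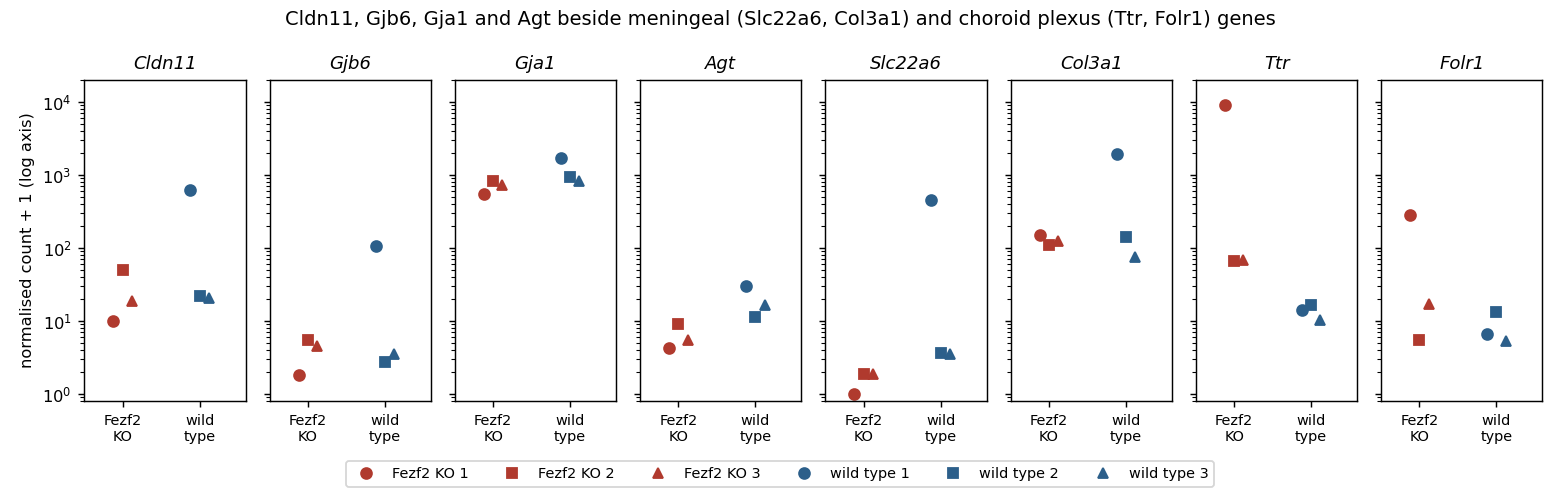
Normalised count plus 1 (logarithmic axis) of Cldn11, Gjb6, Gja1 and Agt beside the meningeal genes Slc22a6 and Col3a1 and the choroid plexus genes Ttr and Folr1, in 3 Fezf2 KO libraries (red, left) and 3 wild type libraries (blue, right). Wild type 1 (blue circle) is highest for the first 6 genes, and Fezf2 KO 1 (red circle) is highest for Ttr, at 8950, and Folr1, at 283.

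The remaining astrocyte markers overlapped between the genotypes. Aqp4, the water channel of astrocyte endfeet, had 309, 409 and 442 counts in Fezf2 KO 1 to 3, against 473, 439 and 521 in wild type 1 to 3. The genotypes met at 442 and 439, and the log2 change of -0.32 (interval -0.64 to 0.01, limma adjusted p = 0.571) was -0.16 without Fezf2 KO 1 (0.811). Gfap, the intermediate filament of astrocytes, had 705, 851 and 1396 counts in Fezf2 KO against 858, 1482 and 1609 in wild type. Values ranged 1.98 times among Fezf2 KO libraries and 1.87 times among wild type libraries, and the interval of the log2 change of -0.43 ran from -1.10 to 0.24. The change was -0.22 without Fezf2 KO 1, the lowest library, and as large as -0.71 without Fezf2 KO 3 or wild type 1. In both genotypes the library of litter m2 was the highest for Gfap.

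Mlc1, a membrane protein of perivascular endfeet, averaged 3038 ± 366 in Fezf2 KO and 3177 ± 392 in wild type. S100b, a calcium-binding protein of astrocytes and some oligodendrocyte lineage cells, averaged 42.2 ± 3.11 and 37.1 ± 8.92, from at most 54 reads per library. Over this role group 0 of 5 tested genes changed (median log2 -0.32).

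Astrocyte genes of metabolism and transport had 0 of 6 changed, and all 6 intervals lay within 1.5-fold (median log2 -0.04). Aldh1l1, a folate enzyme used as a general astrocyte marker, averaged 4704 ± 238 in Fezf2 KO and 4928 ± 354 in wild type, with an interval from -0.22 to 0.08. Glul, glutamine synthetase, averaged 10462 ± 1080 and 10649 ± 1245, and Aldoc, the brain aldolase, 7776 ± 227 and 7364 ± 460. Ndrg2, a cytoplasmic protein enriched in astrocytes, averaged 5453 ± 345 and 5691 ± 220, and Acsbg1, an acyl-CoA synthetase, 2591 ± 267 and 2715 ± 115.

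Slc6a11 was the exception in this role group in that its genotypes did not overlap. It encodes GAT-3, the GABA transporter of astrocytes, and had 9466, 10470 and 10638 counts in Fezf2 KO 1 to 3, against 8513, 8528 and 9219 in wild type 1 to 3. The log2 change was 0.22 (SE 0.059, interval 0.08 to 0.35), a difference of 1.16-fold, with a limma adjusted p of 0.218 and a DESeq2 adjusted p of 0.0548. Without Fezf2 KO 1 it was 0.27 (limma adjusted p = 0.0958).

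Among secreted astrocyte proteins 0 of 4 changed (median log2 -0.09), and all 4 were lowest in Fezf2 KO 1. Agt, angiotensinogen, had 3.25, 8.08 and 4.42 counts in Fezf2 KO 1 to 3, against 29, 10.5 and 15.5 in wild type 1 to 3. These values rest on 4, 9 and 5 reads in Fezf2 KO and 31, 12 and 18 reads in wild type. The genotypes did not overlap, wild type 1 was the highest library, and the log2 change was -1.59 (SE 0.442, interval -2.60 to -0.57, limma adjusted p = 0.244). It was -1.21 without wild type 1 (limma adjusted p = 0.546), -0.97 without replicate 1 of both genotypes (0.685), and -0.69 with the striatal genes as a covariate (0.846).

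Sparcl1, a synapse-forming protein also made by endothelial cells and neurons, averaged 13089 ± 818 in Fezf2 KO and 13210 ± 787 in wild type. Clu, clusterin, which choroid plexus also makes, averaged 4321 ± 73.1 and 4509 ± 120, and was 4267 in Fezf2 KO 1 and 4292 in Fezf2 KO 2. The part of choroid plexus in Clu was not tested. Apoe, the lipid carrier of astrocytes and microglia, had 7769, 10825 and 9993 counts in Fezf2 KO 1 to 3, against 10953, 9582 and 10041 in wild type 1 to 3. Fezf2 KO 1 alone lay apart for Apoe, and the log2 change was -0.11 with it and 0.03 without it (limma adjusted p = 0.971). The summed level of 9 microglia genes was 3882 in Fezf2 KO 1, 3912 in wild type 3 and 4148 to 4838 in the other libraries. The part of microglia in Apoe was not tested.

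**Figure D4:**
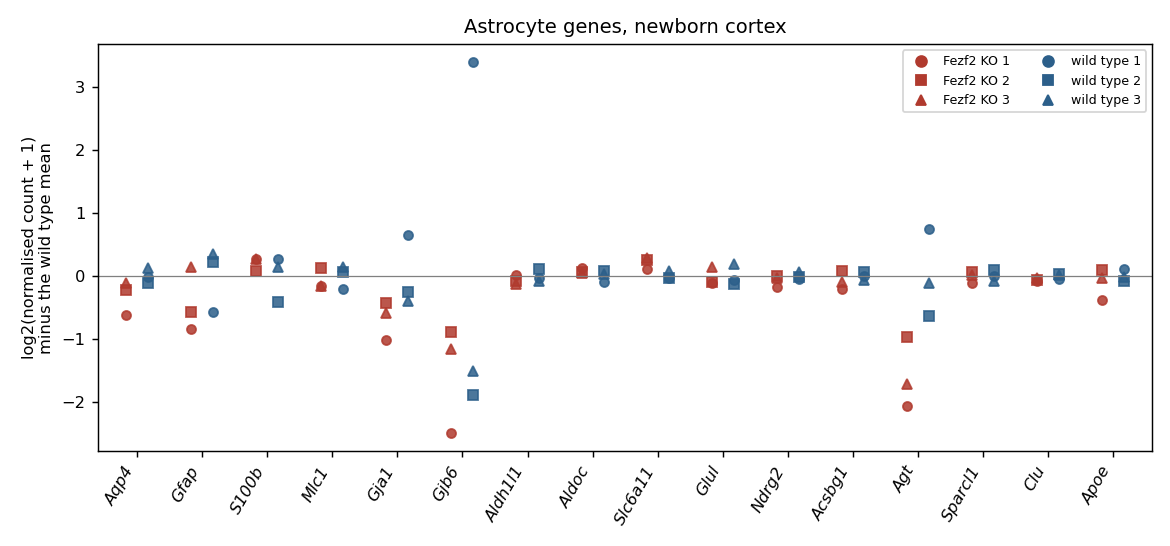
Log2 of the normalised count plus 1 of each astrocyte gene, minus its wild type mean, in each library (Fezf2 KO red, left of wild type in blue; symbols give the replicate). Metabolic genes cluster near 0, wild type 1 is far above the rest for Gjb6 and highest for Gja1, and Fezf2 KO 1 (red circle) is lowest for 9 of the 15 tested genes.

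Across the genes as a set, Fezf2 KO 1 was the lowest of all 6 libraries for 16 of the 30 tested genes, 7 oligodendrocyte and 9 astrocyte, where 23.2% of all genes tested were lowest there. It was also lowest for 18 of 33 other astrocyte genes and for 12 of 14 striatal neuron genes, but for 8 of 26 other oligodendrocyte lineage genes, where wild type 1 was lowest for 9, and for 1 of 12 radial glia genes. The part of its choroid plexus and striatal levels in this was not tested. Genotypes did not overlap for 7 of the 30, 5 of them higher (Sox10, Pdgfra, Tnr, Mag and Slc6a11) and 2 lower (Gja1 and Agt) in Fezf2 KO, against 7.6% and 6.85% of all genes in those directions and 14.5% in either. The log2 change was positive for 11 of 15 oligodendrocyte genes and 3 of 15 astrocyte genes, against 51% of all genes. Of the 4 oligodendrocyte genes with a negative change, Cldn11 moved to -0.02 without wild type 1.

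Other genes of the oligodendrocyte lineage held 1 change. Of 30 listed, 26 were tested, 0 rose, 1 fell and 25 did not pass (median log2 0.09). The gene that fell was Ermn, which encodes ermin, a cytoskeletal protein of myelinating oligodendrocytes, with 10.6, 11.7 and 7.95 counts in Fezf2 KO 1 to 3, against 54.3, 48 and 54.1 in wild type 1 to 3. The genotypes were far apart and even within each, and the log2 change was -2.28 (SE 0.223, interval -2.79 to -1.77, limma adjusted p = 0.00373). It lay between -2.38 and -2.13 when 1 library was left out, with limma adjusted p from 0.0095 to 0.0262, and was -2.29 without replicate 1 of both genotypes (0.0537). With the striatal genes as a covariate, which was itself lower in every Fezf2 KO library, it was -2.17 (limma adjusted p = 0.103). Exons of Ermn overlap those of Galnt5 on the opposite strand in GENCODE M21, and the labels do not say whether libraries kept strand. The reads therefore cannot be assigned to Ermn alone. No entry of the deposited table carries the symbol Galnt5, so its level could not be compared.

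The promoter of Ermn is shown because it is the one lineage gene that passed the test; its window lies at chr2:58052815-58053114 on the - strand of GRCm38.p6 and is read in the direction of the gene.
Ermn: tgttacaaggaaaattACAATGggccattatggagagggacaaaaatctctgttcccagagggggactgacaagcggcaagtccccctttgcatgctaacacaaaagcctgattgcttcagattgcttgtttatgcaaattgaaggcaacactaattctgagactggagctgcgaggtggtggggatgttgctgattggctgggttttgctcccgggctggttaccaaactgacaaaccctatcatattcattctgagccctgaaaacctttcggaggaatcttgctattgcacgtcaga
The capitals mark its single ACAATG, and the window holds neither CANNTG nor ACAAAG. These matches describe letters and say nothing of binding.

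Other genes of myelin formation did not pass the test. Myrf, the myelin regulatory factor, listed in the table as Gm98, had 82, 208 and 157 counts in Fezf2 KO against 143, 114 and 109 in wild type (limma adjusted p = 0.932). Fezf2 KO 1 was lowest and Fezf2 KO 2 highest for it, as for Enpp6, a marker of newly formed oligodendrocytes, at 3.25, 35 and 15.9 counts in Fezf2 KO against 15.9, 4.36 and 6.02 in wild type. Both genes were singled out after their values were seen.

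Of 34 other astrocyte genes 33 were tested, 0 rose, 1 fell and 32 did not pass (median log2 -0.03). Timp3, a secreted inhibitor of metalloproteinases, fell to 1437, 1456 and 1368 counts in Fezf2 KO 1 to 3, against 1788, 2011 and 2039 in wild type 1 to 3. Every Fezf2 KO library lay below every wild type library (log2 -0.45, SE 0.070, limma adjusted p = 0.0338). Leaving out Fezf2 KO 1, 2 or 3 gave a limma adjusted p of 0.073, 0.0738 or 0.141, and leaving out wild type 1, 2 or 3 gave 0.0328, 0.148 or 0.116. With litter as a block it was 0.0478.

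**Figure D5:**
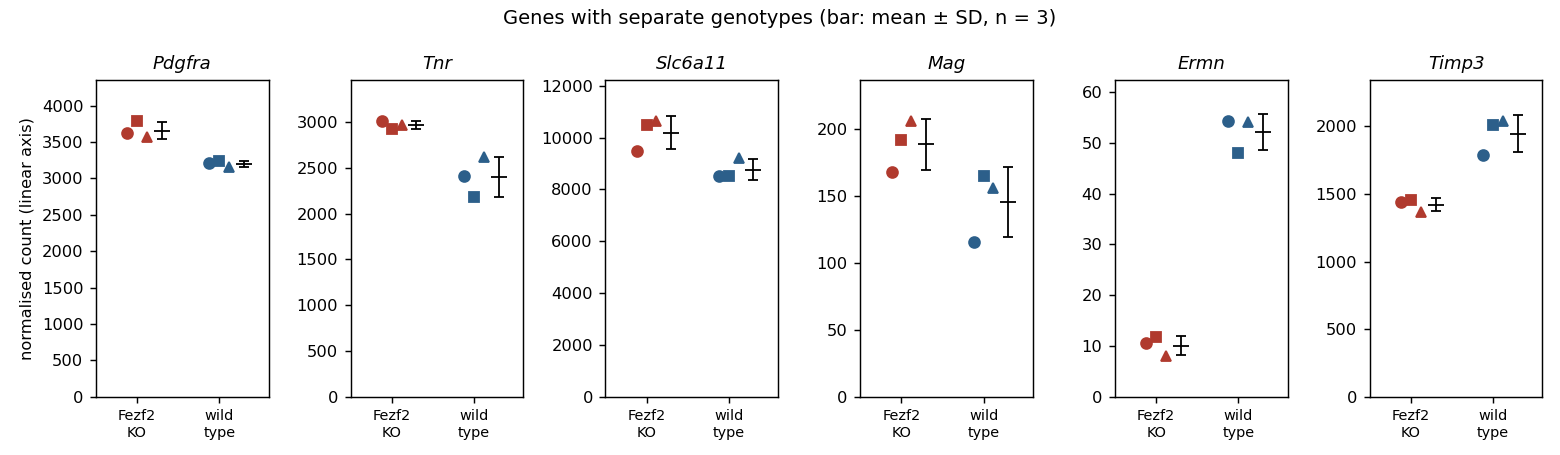
Normalised counts (linear axis from 0) of Pdgfra, Tnr, Slc6a11, Mag, Ermn and Timp3 in 3 Fezf2 KO libraries (red, left) and 3 wild type libraries (blue, right), with mean and SD (black bars). The first 4 have higher Fezf2 KO values that do not overlap wild type and did not pass limma over all genes, while Ermn, at 10.1 ± 1.91 against 52.1 ± 3.59, and Timp3 passed.

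Among 36 tested genes of signalling in gliogenesis 0 changed by limma (median log2 0.02) and 3 reached 0.05 before adjustment, against 9.03% of all genes. None passed by edgeR and 2 did by DESeq2, against 0.689% and 2.3% of all genes. Lifr, the receptor subunit through which LIF and related cytokines drive astrocyte genes, had 649, 635 and 624 counts in Fezf2 KO 1 to 3, against 476, 494 and 506 in wild type (log2 0.37, SE 0.074, limma adjusted p = 0.0866). Socs3, the feedback inhibitor of that pathway, had 931, 936 and 1085 counts in Fezf2 KO against 773, 723 and 834 in wild type (log2 0.34, limma adjusted p = 0.217). Neither gene overlapped between the genotypes, with Fezf2 KO higher, as in 7.6% of all genes, and these are the 2 that DESeq2 called. Pdgfa, the ligand of Pdgfra, averaged 2137 ± 208 in Fezf2 KO and 1980 ± 71.2 in wild type and did not pass (limma adjusted p = 0.796).

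Genes of the radial glia and progenitors from which both lineages come held 0 changes among 12 tested (median log2 0.08, 3 with an unadjusted p under 0.05, 0 by edgeR and 1, Gas1, by DESeq2). Gas1, a membrane protein of the Shh pathway, averaged 3992 ± 882 in Fezf2 KO and 2669 ± 505 in wild type (log2 0.58, limma adjusted p = 0.293), and was highest in Fezf2 KO 1, at 4995, which is 1.37 times the next library. Ventral telencephalic genes, of the region that gives rise to the first oligodendrocyte precursors, held 0 changes among 8 tested entries, of which 2 are Dlx1 (3 with an unadjusted p under 0.05, 0 by edgeR and 1, Lhx6, by DESeq2). Over all genes, 9.03% had an unadjusted limma p under 0.05, 0.689% passed by edgeR and 2.3% by DESeq2. Lhx6, a factor of medial eminence interneurons, averaged 8310 ± 387 in Fezf2 KO and 7051 ± 332 in wild type, and Dlx2 averaged 5804 ± 150 and 5132 ± 209.

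Of the other lists, striatal neuron genes had a median log2 change of -1.30 over 14 tested. The change was negative for 13 of the 14. In that direction 12 reached an unadjusted p under 0.05, against 4.37% of all genes, and 8 did not overlap between genotypes, against 6.85%. After adjustment 1 fell, Ppp1r1b, which deep cortical neurons also express, with 2547 ± 583 counts in Fezf2 KO and 6280 ± 510 in wild type (limma adjusted p = 0.00594). Its limma adjusted p was 0.123 in litter m1 alone and 0.056 without replicate 1 of both genotypes. Schwann cell genes held 1 rise, that of Egr2, which cortical neurons also express, at 186 ± 16.2 in Fezf2 KO and 87.4 ± 10.5 in wild type (limma adjusted p = 0.0137). For Egr2 the limma adjusted p was 0.0507 without Fezf2 KO 2, 0.0669 without Fezf2 KO 3 and 0.0651 without wild type 3. Meningeal, choroid plexus, endothelial and mural, and microglia genes held 0 changes by limma, edgeR and DESeq2, with 0, 1, 2 and 0 genes at an unadjusted p under 0.05. These were out of 6, 5, 10 and 9 tested genes, against 9.03% of all genes. In those lists the lowest p belonged to Col3a1, at 126 ± 22.0 in Fezf2 KO and 705 ± 1039 in wild type, to Ttr, to Kcnj8, at 460 ± 38.1 and 382 ± 4.35, and to Cx3cr1, at 556 ± 60.3 and 638 ± 75.1. Next to them stood Col1a2 at 278 ± 24.1 and 921 ± 1225, Folr1 at 101 ± 158 and 7.38 ± 4.25, Tek at 324 ± 15.7 and 261 ± 31.7, and Aif1 at 168 ± 10.7 and 185 ± 4.06.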

How the data were processed

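Cortical RNA of 6 mice, 3 Fezf2 KO and 3 wild type, was sequenced from TruSeq libraries, on a Genome Analyzer II according to the labels' protocols. Bowtie, STAR, DESeq and the build mm9 are named in the submitters' processing notes, without versions. Values in the deposited table are signal: each gene's reads over a library-wide size factor, with no scaling to length; strand and annotation are not given in the sources used here. Values of overlapping genes are therefore uncertain, and among the 32 genes this touches Olig1, Sox8, Nkx2-2, Pdgfra, Tnr, Gpr17, Bcas1, Glul and Aldh1l1.

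The value of 1 read, 0.8119 to 0.9357 per library, was recovered from the steps between values, and 99.97% to 100% of values were whole multiples within 0.01. A count of 0 allows up to 3 reads, which covers counting error only. As the values were already divided by size factors, the test was limma on log2(value + 1), with genotype as the single term, a trended variance, a filter of 10 in at least 3 libraries, and Benjamini-Hochberg adjustment over all genes tested at 0.05. edgeR with TMM factors and DESeq2 ran on the recovered reads as alternatives, and edgeR called 121 genes. The other alternatives were a pseudocount of 0.5, no filter, an adjusted p of 0.1, litter as a block in limma and in edgeR, litter m1 alone, each library left out, a covariate made of the mean striatal level, and replicate 1 of both genotypes left out, the last and the edgeR block chosen after seeing the data. The striatal covariate was lower in every Fezf2 KO library than in every wild type library, so it takes up part of the genotype difference. Calls lost or signs reversed with it cannot be told apart from that overlap. The scripts were tested on simulated data.

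The genes and the lists were chosen with earlier results of these data known. All 32 genes are named; of each other list up to 3 changed genes with the smallest p are named, or the 2 with the smallest p where none changed. Some genes of those lists are not reported here. Litter pairs the samples by the labels. The deviations of libraries from their genotype mean correlated across 13582 genes, which are not independent, between -0.177 and 0.263 for the 5 pairs from 1 litter and between -0.226 and -0.043 for the 4 pairs across litters. For each gene the deviations within a genotype sum to 0, so the positive value of the m2 pair, 0.263, forces negative values on balance across litters. The contrast therefore cannot test litter. Separate animals were sampled, each with 1 library, so p-values measure the spread between animals together with that of dissection and library preparation. Transcript lengths and overlaps came from GENCODE M21 and promoters from RefSeq, both on GRCm38. Tools were limma 3.58.1, DESeq2 1.42.0 and edgeR 4.0.16 under R 4.3.3, and pandas 2.3.3 under Python 3.11.15.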

Additional observations from a re-analysis of the deposited data

How the results depend on the processing

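The count of changed glial genes was 0 under limma, edgeR, the litter block and each library left out, and 2 by DESeq2 (Pdgfra and Tnr, both precursor genes). Over all genes the count was 125 and became 403 by DESeq2, 29 in litter m1 alone, 37 with the striatal covariate, 57 without replicate 1 of both genotypes, 222 at an adjusted p of 0.1, and 61 to 119 without 1 library. With litter as a replicate block it was 138, and the block changed no call of a gene named here. In litter m1 alone the log2 change of Fezf2 was -1.72 (limma adjusted p = 0.0595).

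The log2 change kept its sign under all 15 alternatives for 17 of the 30 tested genes and reversed under at least 1 for 13. With the striatal covariate the value was 0.05 for Sox8, 0.33 for Cnp, 0.85 for Cldn11, 0.06 for Mlc1, 0.03 for Ndrg2, 0.12 for Acsbg1, 0.11 for Sparcl1 and 0.22 for Apoe. Without replicate 1 of both genotypes it was 0.15 for Cnp, 0.52 for Cldn11, 0.03 for Sparcl1 and 0.08 for Apoe. In litter m1 alone it was -0.09 for Olig2, 0.02 for Cnp and 0.06 for Mlc1. For Cnp it was 0.00 by edgeR, by DESeq2 and by edgeR with the litter block. Leaving out 1 library gave -0.06 to 0.04 for Olig2, -0.04 to 0.22 for Nkx2-2, -0.14 to 0.14 for Cnp, -0.06 to 0.48 for Bcas1, 0.00 to 0.34 for S100b, -0.17 to 0.01 for Mlc1, -0.11 to 0.07 for Glul, -0.05 to 0.04 for Sparcl1 and -0.21 to 0.03 for Apoe. The cause was not tested.

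The lists beside the glial genes moved as follows. The change of Ermn and that of Timp3 left 0 calls in their lists in litter m1 alone, with the striatal covariate and without replicate 1 of both genotypes, and leaving out 1 library gave 1 and 0 to 1. Gliogenic signalling genes had 2 calls by DESeq2 (Lifr and Socs3) and 1 at an adjusted p of 0.1 (Lifr). Radial glia genes had 1 by DESeq2 (Gas1), ventral genes 1 (Lhx6) and striatal genes 2 (Penk and Ppp1r1b). Striatal genes had 0 in litter m1 alone and without replicate 1 of both genotypes, and 1 to 7 without 1 library. Choroid plexus genes had 0 to 1 without 1 library (Ttr without Fezf2 KO 1). Schwann cell genes had 0 in litter m1 alone, with the striatal covariate and without replicate 1 of both genotypes, and 0 to 1 without 1 library.

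Precision is limited by 3 animals per genotype and, for Agt, Gjb6, Mobp and S100b, by reads. Reads of Cldn11 were also few outside wild type 1, at 11 to 55 per library.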
